A study of Mus musculus with 8 samples.

Results

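The 10 genes described here were listed as iron handling genes: the hepcidins Hamp and Hamp2, the sensor Hfe, the receptors Tfr2 and Tfrc, the carrier Trf, the exporter Slc40a1, the ferroxidase Cp and the ferritin subunits Fth1 and Ftl1. The role of Hamp2 in iron handling was not tested. They were given as a list of names and found by symbol among the 54838 genes counted in bulk RNA sequencing of mouse liver; all 10 were found once and all 10 passed the filter on low counts. The study profiled 4 libraries labelled tumour and 4 labelled non-tumour. Both groups came from male wild-type C57BL/6J mice that received diethylnitrosamine (DEN), a liver carcinogen, by intraperitoneal injection at day 15 and then HFD+SW, names that the labels do not expand. The labels give 30 weeks as the length of the diet, as the time since the injection and as the time of cull, so the age at sampling is known only to that extent. No uninjected or normally fed mice are among the samples used here, so DEN and the diet were shared by every library. The labels do not say whether a tumour and a non-tumour piece with the same number came from the same mouse, or whether numbers stand for separate mice.

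Iron leaves enterocytes, macrophages and hepatocytes through ferroportin, the product of Slc40a1, and travels in blood bound to transferrin, the product of Trf. Hepatocytes secrete hepcidin, the product of Hamp, which binds ferroportin and causes its removal from the cell surface. Hepcidin transcription is raised through a BMP and SMAD pathway that senses iron, with HFE, TFR2 and hemojuvelin as cofactors, and through IL-6 and STAT3 in inflammation. Within cells, iron regulatory proteins bind a short hairpin, the iron responsive element, when iron is scarce. Bound in a 5′ untranslated region it blocks translation, and bound in a 3′ untranslated region it protects the mRNA from decay.

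Some libraries were near-identical. Of 28 library pairs, 4 differed by a chi-square per degree of freedom between 1.58 and 3.28, while the other 24 pairs differed by 71.7 to 165. Tumour 2 and tumour 4 formed 1 such pair, and non-tumour 2, 3 and 4 formed a set, so each set was summed and counted as 1 sample. This left 5 profiles, 3 tumour (1, 2/4 and 3) and 2 non-tumour (1 and 2/3/4), and a mean or SD below is over these. Total counts ranged from 15446690 to 21977052 per library, and each member had at least 238 counts in each library, so counting error was small against the spread between profiles. Levels are given as CPM (counts scaled to a common library total) after TMM scaling, which corrects library size for differences in composition. Macrophage, endothelial and hepatocyte marker sums are given beside some of the genes. In bulk tissue, fewer cells of a type and less RNA per cell cannot be told apart.

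The iron responsive elements of the members are shown first because the ferritin, ferroportin and transferrin receptor mRNAs share them while their levels differed in pattern. The element was searched in annotated untranslated regions (GRCm38) as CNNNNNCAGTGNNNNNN, on the transcript strand alone, with the 5 bases after the first C pairing with the last 5 (G-T pairs allowed). Of the 10 members, 4 held it. Fth1, Ftl1 and Slc40a1 each held 1 in the 5′ untranslated region, and Tfrc held 4 in the 3′ untranslated region. Across all genes with such a region of at least 30 bases, 28 of 19953 (0.14%) held a match in the 5′ and 127 of 20734 (0.613%) in the 3′ untranslated region. The Fth1 element lies at chr19:9982732-9982760 on the plus strand, that of Ftl1 at chr7:45459779-45459807 on the minus strand, that of Slc40a1 at chr1:45925465-45925493 on the minus strand, and the first of Tfrc at chr16:32631219-32631247 on the plus strand. Capitals mark the loop, with T for U.
Fth1: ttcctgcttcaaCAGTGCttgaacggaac
Ftl1: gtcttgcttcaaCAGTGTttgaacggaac
Slc40a1: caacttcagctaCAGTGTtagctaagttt
Tfrc: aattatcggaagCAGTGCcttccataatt
The search fixed the loop letters but the last, so their likeness is no finding. The Fth1 and Ftl1 elements are alike next to the loop and differ in the bases farther before it. A match is a description of letters, and no binding was measured. Elements that depart from these letters or pairs would be missed, so the counts are of this pattern alone.

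The hepcidin genes Hamp and Hamp2 are neighbouring copies on chromosome 7, and their promoters are shown because their levels did not follow each other. The bases from 250 to 11 before the RefSeq start (GRCm38.p6) lie at chr7:30944040-30944279 for Hamp and chr7:30924192-30924431 for Hamp2, both on the minus strand. Both strands were searched for GGCGCC, the BMP responsive letters, and for TTCNNNGAA, the STAT letters; capitals mark the matches.
Hamp: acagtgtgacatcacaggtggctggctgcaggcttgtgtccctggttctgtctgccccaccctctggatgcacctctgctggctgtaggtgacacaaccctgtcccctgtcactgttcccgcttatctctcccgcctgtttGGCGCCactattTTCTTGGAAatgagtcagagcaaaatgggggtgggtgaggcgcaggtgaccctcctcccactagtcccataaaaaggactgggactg
Hamp2: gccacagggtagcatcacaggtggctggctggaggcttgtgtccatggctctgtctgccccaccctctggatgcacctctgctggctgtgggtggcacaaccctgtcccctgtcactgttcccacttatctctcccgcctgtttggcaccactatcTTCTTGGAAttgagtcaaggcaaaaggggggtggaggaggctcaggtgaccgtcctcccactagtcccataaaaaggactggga
The 2 stretches were identical at 89.7% of 243 aligned columns. Hamp held GGCGCC from -109 to -104 and TTCTTGGAA from -97 to -89. Hamp2 held TTCTTGGAA from -94 to -86, and its block aligned with the GGCGCC of Hamp carried G4A, counted from the first base of the block with the Hamp base first. GGCGCC occurred in 11.9% and TTCNNNGAA in 8.3% of 32851 promoter windows. Those windows are longer than the printed stretches, which are cut before their end, so the shares would be lower at the printed length. The 2 motifs do not overlap each other.

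Per kilobase of exon, the level averaged over the 5 profiles was 1683 CPM per kb for Fth1, 1275 for Hamp, 979 for Ftl1, 425 for Trf, 141 for Cp, 78.6 for Hamp2, 56.3 for Tfr2, 13.9 for Slc40a1, 12.7 for Hfe and 3.70 for Tfrc. Ferritin heavy chain and hepcidin mRNA thus headed this order and the transferrin receptor of dividing cells closed it. Between neighbours, the profile ranges of Fth1 and Hamp overlapped, as did those of Hamp and Ftl1, Cp and Hamp2, Hamp2 and Tfr2, and Slc40a1 and Hfe. The ranges of Ftl1 and Trf (677 to 1305 against 239 to 652 CPM per kb), of Trf and Cp (highest Cp 196), of Tfr2 and Slc40a1 and of Hfe and Tfrc did not overlap. Exon length here is the union over all annotated transcripts, which lowers the value of genes with long or rarely used exons.

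None of the 10 members passed the test between tumour and non-tumour tissue (edgeR's quasi-likelihood test over the 5 profiles, Benjamini-Hochberg adjustment over 13650 genes). Over all genes, 0.0% were called, 451 had an unadjusted p under 0.05, and none of these was a member. DESeq2 and limma voom called no member either. All 10 adjusted p-values lay between 0.995 and 0.998. Of the members, 4 had a positive and 6 a negative log2 fold change, with a median of -0.23 (range -0.62 to 0.71) beside 0.014 over all genes tested. In 3 members every tumour profile lay on one side of every non-tumour profile: Hamp and Hfe were lower in tumours, and Trf was higher. Among all genes tested, the tumour profiles were all lower in 8.64% and all higher in 9.7%, so 2 and 1 of 10 are counts of a size near that background.

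**Figure D1:**
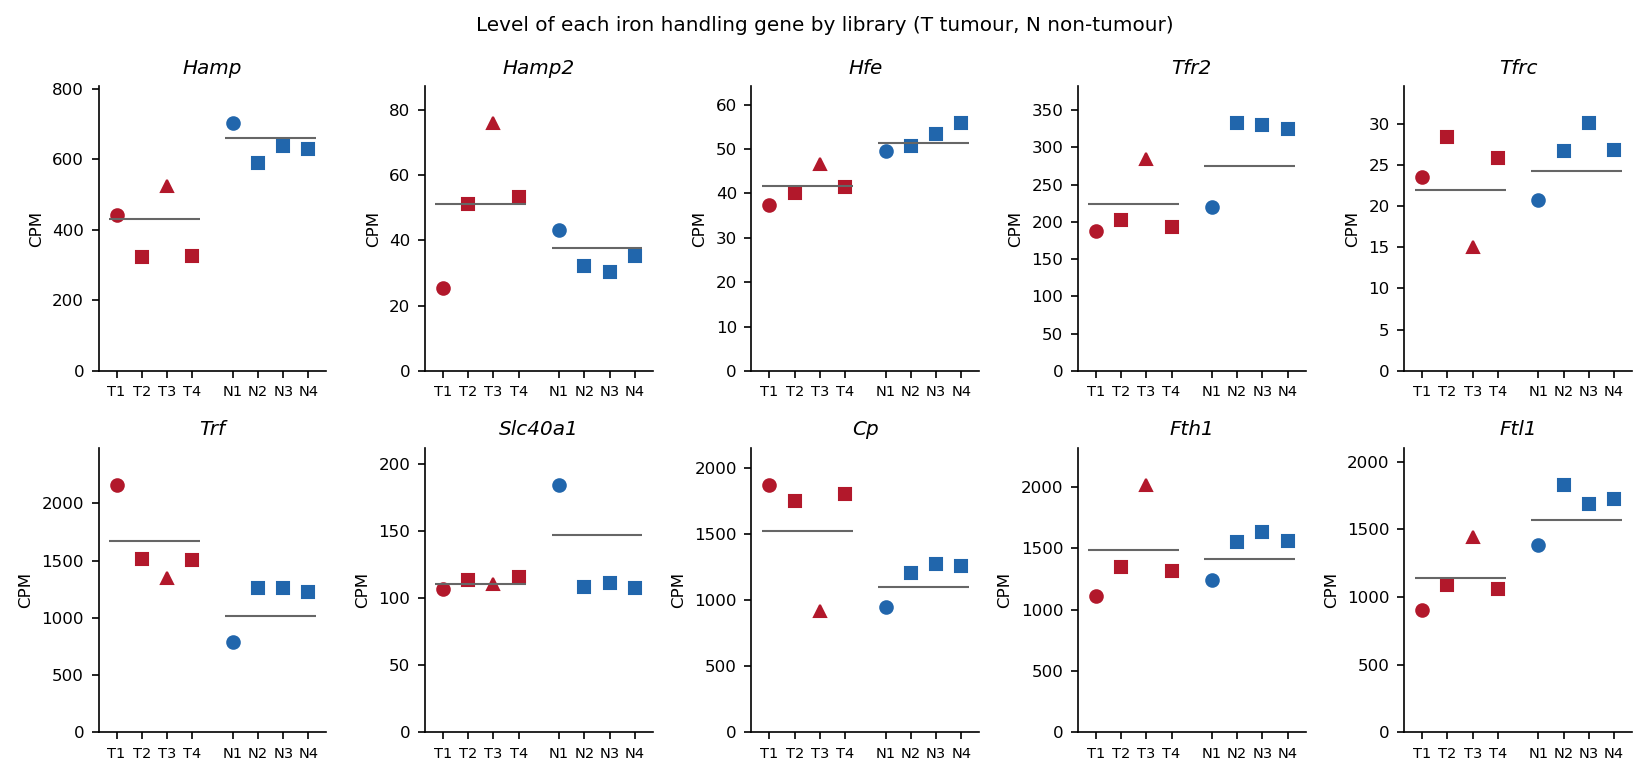
Level (CPM, linear axis from 0) of each of the 10 genes in the 8 libraries, tumour in red (T1 to T4) and non-tumour in blue (N1 to N4); squares mark libraries of a near-identical set, triangles tumour 3, circles tumour 1 and non-tumour 1, and lines the mean over profiles. Hamp and Hfe lie lower and Trf higher in all tumour libraries, while Slc40a1 stands at 184 in N1 and between 107 and 116 elsewhere.

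Hamp was lower in each tumour library than in each non-tumour library. Tumour libraries 1 to 4 had 443, 323, 524 and 325 CPM, and non-tumour libraries 1 to 4 had 703, 591, 639 and 628 CPM. The tumour profiles averaged 430.3 ± 101 CPM (SD, n = 3) and the non-tumour profiles 661 ± 59.0 CPM (SD, n = 2), a ratio of means of 0.65. The log2 fold change was -0.62 (SE 0.27), with an adjusted p of 0.995 in edgeR. The tumour 2/4 profile was the lowest, and tumour 3 came nearest to the non-tumour libraries.

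Hamp2, the second mouse hepcidin gene, did not follow Hamp. Its level was 25.3 CPM in tumour 1, 52.3 in tumour 2/4 and 75.9 in tumour 3. The non-tumour profiles had 43.1 and 32.5 CPM. The tumour profiles spanned the non-tumour ones on both sides (51.2 ± 25.3 CPM, SD, n = 3, against 37.8 ± 7.47 CPM, SD, n = 2), and the log2 fold change was 0.43 (SE 0.44, adjusted p = 0.995, edgeR). Without tumour 3 it was 0.04, without tumour 1 0.76 and without non-tumour 2/3/4 0.24. Hamp exceeded Hamp2 in CPM by a factor of 17.5 in tumour 1, 6.19 in tumour 2/4 and 6.90 in tumour 3, and by 16.3 and 19.1 in the non-tumour profiles. Tumour 1 therefore had a hepcidin ratio inside the non-tumour range, and the other tumour profiles had ratios below it. Annotated transcripts of Hamp (410 bases) and Hamp2 (420 bases) were identical at 92.4% of positions and shared an unbroken run of 87 bases. Reads that mapped to both copies were not counted, so both levels are uncertain.

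The genes that set hepcidin transcription were taken as a list of 24, of which 22 were tested. None was called, 1 had an unadjusted p under 0.05, and 6 had positive and 16 negative log2 fold changes (median -0.18, against 0.014 over all genes). Il6ra, the ligand-binding receptor of IL-6, had 14.0, 16.2 and 12.5 CPM in the tumour profiles and 18.3 and 21.7 in the non-tumour ones (log2 fold change -0.49, SE 0.18, adjusted p = 0.995, edgeR). Bmp6, the ligand that endothelial cells make in response to iron, had 3.58, 2.90 and 3.35 CPM against 5.49 and 4.13 (log2 fold change -0.55, SE 0.27, or -0.35 without non-tumour 1). Tmprss6, the protease that cleaves hemojuvelin and lowers hepcidin, had 350, 341 and 317 CPM against 413 and 476 (log2 fold change -0.41, SE 0.20). Thus both an activating ligand and an inhibiting protease of the pathway lay lower in all tumour profiles, without passing the test.

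Id1, a transcriptional target of BMP and SMAD signalling, lay higher in 2 tumour profiles than in the rest. The tumour profiles 1, 2/4 and 3 had 17.2, 9.11 and 4.74 CPM, and the non-tumour profiles had 5.99 and 2.76 CPM (log2 fold change 1.26, SE 0.60, adjusted p = 0.995, edgeR). Tumour 3 lay between the non-tumour profiles, so the groups overlapped. The value was 0.68 without tumour 1, 1.90 without non-tumour 1 and 0.79 without non-tumour 2/3/4. Smad7, an inhibitor that the same pathway induces, had 8.38, 7.64 and 6.83 CPM against 9.47 and 6.38, and Bmp2, another endothelial ligand, had 11.7, 10.5 and 13.1 against 13.95 and 10.7. Both overlapped. The hemojuvelin gene, listed as Hfe2, had 82.6, 82.7 and 94.95 CPM against 78.6 and 78.8. Its non-tumour profiles were nearly equal and lay just below the tumour ones.

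The 10 sinusoidal endothelial markers, of which none was at 0, summed to 272, 249 and 212 CPM in the tumour profiles and to 428 and 199 CPM in non-tumour 1 and 2/3/4. Bmp6 was also highest in non-tumour 1. In tumours, however, Bmp6 lay below non-tumour 2/3/4, while the marker sums lay above it. The part of these cells in the Bmp6 level was not tested. The serum amyloid genes differed between the 2 non-tumour profiles. Saa1, an IL-6-induced acute phase gene, had 33.3, 103 and 56.6 CPM in the tumour profiles, 46.5 in non-tumour 1 and 394 in non-tumour 2/3/4, and Saa2 had 12.3, 53.2 and 36.0 against 20.6 and 181. Both were high in non-tumour 2/3/4 and in no other profile. Hamp had 703 and 619 CPM in these non-tumour profiles, the higher value where Saa1 was low. The part of inflammation in the Hamp level was not tested. Of the 14 acute phase genes tested, none was called, and 2 had positive and 12 negative log2 fold changes (median -0.34). Orm3, an orosomucoid gene, had 1.09, 7.91 and 5.12 CPM against 1.51 and 1.55, so its tumour 2/4 and tumour 3 values lay above the others.

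Hfe, which encodes the MHC class I-like protein mutated in hereditary haemochromatosis, showed the narrowest spread of the members, a factor of 1.42 between its highest and lowest profile. Tumour libraries 1 to 4 had 37.5, 40.0, 46.5 and 41.4 CPM and non-tumour libraries 49.6, 50.7, 53.3 and 55.8 CPM. The groups did not overlap, at 41.6 ± 4.58 CPM (SD, n = 3) against 51.4 ± 2.61 CPM (SD, n = 2). The log2 fold change was -0.31 (SE 0.17, adjusted p = 0.995, edgeR).

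Tfr2, the hepatocyte receptor that senses iron-loaded transferrin, had 187, 203, 285 and 193 CPM in tumour libraries 1 to 4 and 220, 332, 330 and 325 CPM in non-tumour libraries 1 to 4. Tumour 3 lay above non-tumour 1, so the groups overlapped (log2 fold change -0.30, SE 0.29, adjusted p = 0.995, edgeR). It was 0.02 without non-tumour 2/3/4, -0.57 without non-tumour 1, -0.51 without tumour 3 and -0.19 without tumour 1. Tfrc, the receptor that takes up iron-loaded transferrin and that dividing cells need, had 23.5, 27.1 and 15.1 CPM in the tumour profiles and 20.8 and 27.8 in the non-tumour ones. Tumour 3 was the lowest, and the log2 fold change was -0.15 (SE 0.28, adjusted p = 0.995, edgeR), which was 0.06 without that profile, 0.08 without non-tumour 2/3/4, -0.35 without non-tumour 1 and -0.34 without tumour 2/4. The 10 proliferation markers, none at 0, summed to 80.4, 56.2 and 28.5 CPM in the tumour profiles and to 40.0 and 47.5 in the non-tumour ones, also lowest in tumour 3; their part in the Tfrc level was not tested. Tfr2 exceeded Tfrc in CPM by 7.97, 7.30 and 18.9 in the tumour profiles and by 10.6 and 11.8 in the non-tumour ones. The tumour profiles thus lay on both sides of the non-tumour ratios.

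Trf, the plasma iron carrier that hepatocytes secrete, was higher in each tumour library. Tumour libraries 1 to 4 had 2164, 1512, 1349 and 1502 CPM and non-tumour libraries 792, 1262, 1263 and 1223 CPM. The means were 1674 ± 432 CPM (SD, n = 3) and 1021 ± 323 CPM (SD, n = 2), and the log2 fold change was 0.71 (SE 0.35, adjusted p = 0.995, edgeR). It was 0.41 without non-tumour 1 and 1.08 without non-tumour 2/3/4, and the gap between the groups was narrow, from 1263 to 1349 CPM. The 10 hepatocyte markers, none at 0 in this liver tissue, summed to 178438, 142033 and 130717 CPM in the tumour profiles and to 105536 and 120610 in the non-tumour ones, the same order of profiles as Trf, and Alb, the albumin gene, made up most of that sum. Most of the other markers did not share this order: 4 of the 10 had positive and 6 negative log2 fold changes (median -0.040), and Ass1 and Cps1 were lower in every tumour profile. The part of these transcripts in the Trf level was not tested.

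Fth1 and Ftl1 encode the heavy, ferroxidase-bearing chain and the light chain of ferritin, the cytosolic iron store. Fth1 had 1112, 1346, 2020 and 1319 CPM in tumour libraries 1 to 4 and 1240, 1555, 1632 and 1564 CPM in non-tumour libraries 1 to 4. Tumour 3 was the highest and tumour 1 the lowest, and the log2 fold change was 0.07 (SE 0.34, adjusted p = 0.998, edgeR). It was -0.21 without tumour 3 and -0.10 without non-tumour 1, but 0.25 without tumour 1, 0.14 without tumour 2/4 and 0.26 without non-tumour 2/3/4. Ftl1 had 907, 1086, 1445 and 1059 CPM in the tumour libraries and 1384, 1831, 1690 and 1725 CPM in the non-tumour ones (log2 fold change -0.46, SE 0.30, adjusted p = 0.995, edgeR). Tumour 3 passed non-tumour 1 by a small margin, and the value was -0.28 without non-tumour 2/3/4. With scaling by library size alone the Ftl1 groups no longer overlapped, which made 3 members lower, beside 5.97% of all genes lower and 9.85% higher.

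The ratio of the ferritin chains varied less within each group than either chain, relative to its mean. The ratio was examined after the values of both genes had been seen. Fth1 to Ftl1 in CPM was 1.23 in tumour 1, 1.24 in tumour 2/4 and 1.40 in tumour 3, and 0.896 and 0.906 in the non-tumour profiles. Each of the 4 tumour libraries lay above each of the 4 non-tumour libraries, whose highest was 0.966 in non-tumour 3. The means were 1.29 ± 0.095 (SD, n = 3) and 0.901 ± 0.0068 (SD, n = 2), a difference of 0.51 on the log2 scale. An exact permutation test over the 10 splits of the profiles gave a two-sided p of 0.1, the lowest that 10 splits can give. Since the ratio was chosen on these values, that p-value carries no weight. The difference was between 0.45 and 0.56 when any 1 profile was left out or libraries were treated otherwise. Being a ratio within a library, it does not depend on scaling, and it does not say which chain differed. Both genes have many processed pseudogenes, and reads that matched several places were not counted. The copies and pseudogenes that carry a ferritin symbol in the annotation held from 0 to 44 counts over all libraries, against 210752 for Fth1 and 197541 for Ftl1. Copies under other names were not looked up. As reads shared between copies were dropped, these counts do not show how many reads of Fth1 or Ftl1 were lost.

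**Figure D2:**
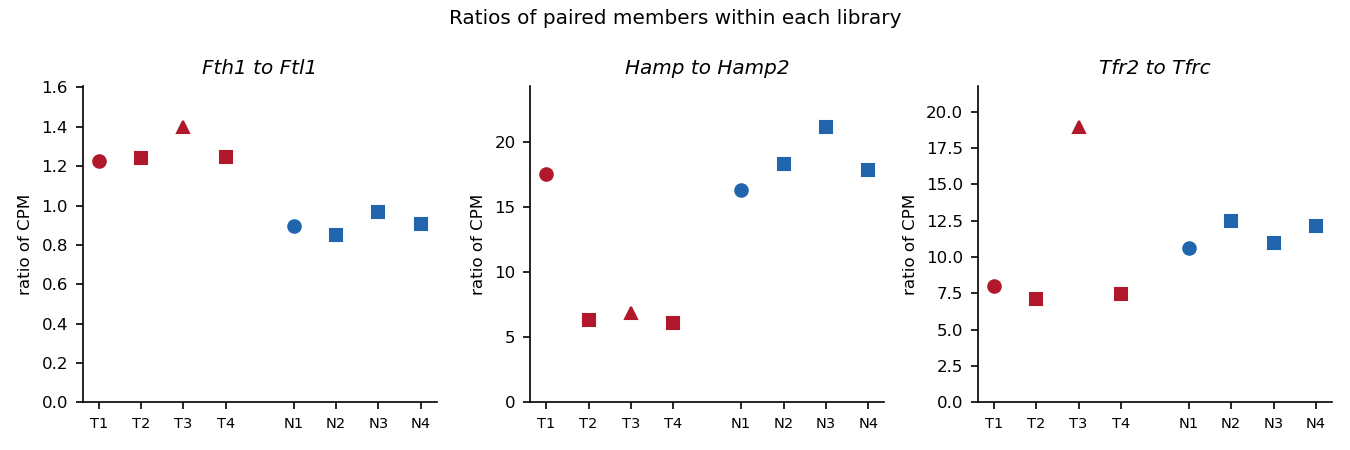
Ratio of CPM within each library for Fth1 to Ftl1, Hamp to Hamp2 and Tfr2 to Tfrc (linear axes from 0), with tumour libraries in red and non-tumour libraries in blue; squares mark libraries of a near-identical set. The ferritin ratio lies between 1.23 and 1.40 in tumour libraries and between 0.850 and 0.966 in non-tumour libraries, while the other 2 ratios overlap.

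Slc40a1, whose product is the cellular iron exporter, was alike in 7 libraries and higher in 1. The tumour libraries had 107, 113, 111 and 116 CPM, and the non-tumour libraries had 184, 108, 111 and 108 CPM. The log2 fold change of -0.41 (SE 0.25, adjusted p = 0.995, edgeR) was 0.01 without non-tumour 1 and -0.74 without non-tumour 2/3/4. Kupffer cells, the liver macrophages that recycle iron from red cells, express this gene strongly. The 10 Kupffer cell markers, none at 0, summed to 315, 294 and 246 CPM in the tumour profiles and to 766 and 267 CPM in the non-tumour ones, so they were also high in non-tumour 1 and in no other profile. Their part in the Slc40a1 level was not tested. Of these markers, Vsig4 had 17.6, 19.5 and 16.3 CPM against 47.5 and 21.03, Clec4f 48.7, 56.8 and 63.4 against 119.7 and 60.7, and C1qa 37.0, 33.3 and 34.0 against 72.8 and 35.9.

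Cp, the plasma ferroxidase that loads exported iron onto transferrin and an acute phase protein, had 1871, 1749, 920.5 and 1798 CPM in tumour libraries 1 to 4 and 949.8, 1206, 1271 and 1255 CPM in the non-tumour libraries. Tumour 1 and tumour 2/4 were above, and tumour 3 below, all non-tumour libraries. The log2 fold change was 0.47 (SE 0.38, adjusted p = 0.995, edgeR). It was 0.73 without tumour 3, 0.29 without tumour 1 and 0.28 without non-tumour 1.

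How the libraries were counted affected these tests. With the 8 libraries taken as separate samples, edgeR called 0.435% of 12880 genes and no member. Without tumour 3, the remaining 7 libraries gave 13.6% of genes called and 5 of the 10 members, Hamp, Tfr2, Ftl1 and Hfe lower and Cp higher in tumours. Their log2 fold changes were -0.81 (SE 0.14, adjusted p = 0.0096) for Hamp, -0.63 (SE 0.14, adjusted p = 0.027) for Tfr2, -0.70 (SE 0.13, adjusted p = 0.011) for Ftl1, -0.40 (SE 0.071, adjusted p = 0.010) for Hfe and 0.63 (SE 0.12, adjusted p = 0.015) for Cp. These p-values treat near-identical libraries as independent and are therefore too small. Tumour 3 had the highest tumour value of Hamp, Tfr2, Ftl1 and Hfe and the lowest of Cp, so leaving it out widened these differences. With libraries as separate samples, no other single library was left out. With the near-identical libraries summed and tumour 3 left out, no member passed, although the fold changes were of like size (Hamp -0.79, Tfr2 -0.51, Ftl1 -0.67, Hfe -0.40 and Cp 0.73, with adjusted p from 0.41 to 0.61 in edgeR).

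**Figure D3:**
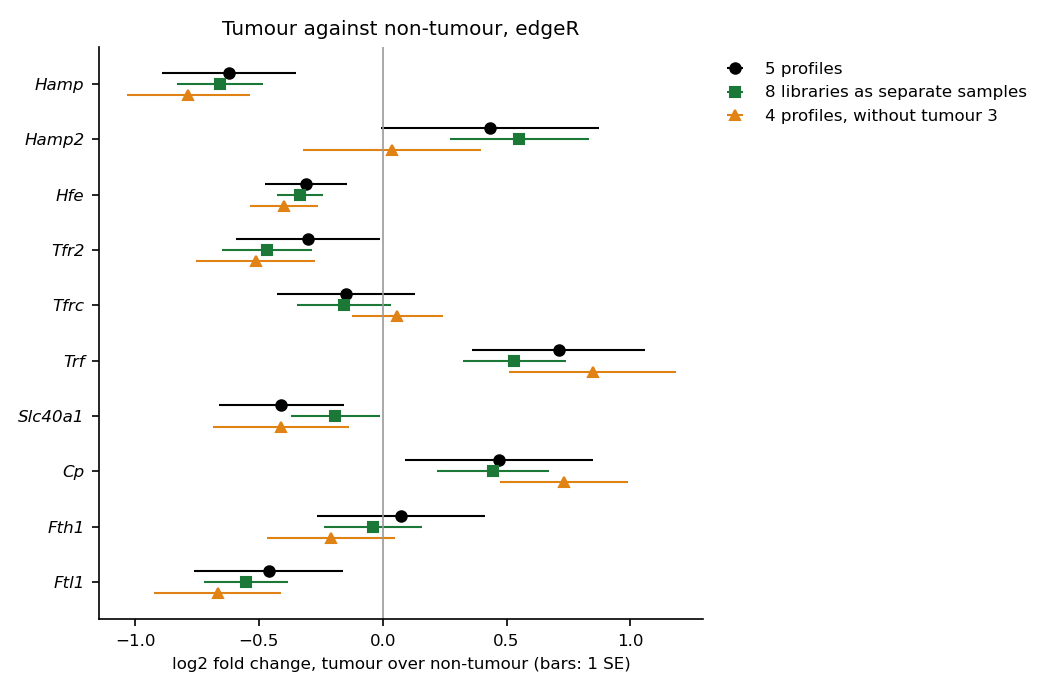
Log2 fold change of each gene, tumour over non-tumour (points, with bars of 1 SE, from edgeR), over the 5 profiles, over the 8 libraries as separate samples and over 4 profiles without tumour 3. Hamp, Hfe and Ftl1 lie below 0 and Trf and Cp above 0 in all 3, while Fth1 and Tfrc change sign.

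The rest of the pathway was taken as 5 lists of 87 genes in all, including the hepcidin control list; 79 were tested. None was called, 3 had an unadjusted p under 0.05, 30 had positive and 49 negative log2 fold changes, and the median was -0.069 beside 0.014 over all genes. The tumour profiles were all lower in 15 of the 79 and all higher in 3, beside 8.64% and 9.7% over all genes tested. Erfe, Il6, Steap1, Cybrd1, Hephl1, Ftmt, Ltf and Fdx1l had too few counts to be tested.

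In the list of 21 genes of cellular iron traffic, 16 were tested, with 6 positive and 10 negative log2 fold changes (median -0.098). Slc11a2, the divalent metal importer DMT1, had 22.4, 25.8 and 25.7 CPM in the tumour profiles against 29.9 and 36.7 (log2 fold change -0.44, SE 0.17, adjusted p = 0.995, edgeR, or -0.28 without non-tumour 2/3/4). Steap3, the endosomal ferrireductase that acts before it, had 13.9, 16.7 and 16.95 CPM against 17.3 and 26.9. Both endosomal genes were lower in every tumour profile, Steap3 by a small margin. By library Steap3 overlapped, as tumour library 2 (18.1 CPM) lay above non-tumour 1 (17.3 CPM). Slc39a14, the importer of iron not bound to transferrin, had 133, 146 and 124 CPM against 135 and 96.4, and overlapped. The iron regulatory protein genes Aco1 (149, 168 and 173 against 151 and 215 CPM) and Ireb2 (71.7, 87.1 and 70.3 against 83.5 and 92.9 CPM) overlapped too. Ncoa4, the receptor that delivers ferritin to lysosomes, had 27.0, 28.2 and 13.7 CPM against 31.7 and 25.8, lowest in tumour 3 as Tfrc was.

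Lcn2 encodes lipocalin 2, which binds iron-carrying siderophores. It had 100.2, 134 and 15.1 CPM in the tumour profiles and 18.6 and 33.6 in the non-tumour ones (log2 fold change 1.67, SE 0.84, adjusted p = 0.995, edgeR). It was high in tumour 1 and tumour 2/4 and lowest in tumour 3. The 8 cholangiocyte markers, none at 0, summed to 531, 286 and 39.9 CPM in the tumour profiles and to 100.4 and 75.0 CPM in the non-tumour ones, a sum carried by Spp1, Tspan8 and Cdh1. The defining keratin genes stayed low and did not have this split. Krt19 had 2.58, 0.245 and 0.380 CPM against 0.403 and 0.336, and Krt7 had 2.45, 0.319 and 0.633 CPM against 0.151 and 0.232. Krt7 was thus higher in every tumour profile. Its tumour 2/4 and non-tumour values lay near the floor, as 3 counts correspond to 0.136 to 0.205 CPM. Of the cholangiocyte list, 7 were tested, all with positive log2 fold changes (median 1.45), and none was called. The 8 neutrophil markers, of which Ly6g was at 0 in every library, summed to between 2.09 and 4.17 CPM in tumours and to 4.17 and 5.09 CPM in non-tumour profiles. The part of either cell type in the Lcn2 level was not tested.

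All 9 enzymes of heme synthesis were tested, with 4 positive and 5 negative values (median -0.083). Alas2, the erythroid form of the first enzyme, had 75.8, 68.2 and 110.1 CPM in the tumour profiles against 126 and 176 CPM (log2 fold change -0.84, SE 0.28, adjusted p = 0.995, edgeR), and all tumour profiles were lower. Its transcript carries an iron responsive element in the 5′ untranslated region, as the ferritin mRNAs do. Hba-a1, a hemoglobin gene, did not have that order, with 129, 63.2 and 134 CPM in tumours against 113 and 82.9. Of the erythroid markers, 6 were tested, Alas2 among them, with 3 positive and 3 negative log2 fold changes (median 0.034). Slc4a1, which encodes the red cell anion exchanger, and Epb42 had at most 0.246 CPM in any profile, where 3 counts correspond to 0.136 to 0.205 CPM. The erythroid list, which also holds Alas2, summed to 731, 393 and 736 CPM against 731 and 611, and its part in the Alas2 level was not tested. Alas1, the form of this enzyme used in liver, had 82.3, 173 and 182 CPM against 122 and 104. Ppox had 17.6, 12.3 and 23.0 CPM against 10.6 and 13.4, and Fech, which inserts iron into heme, had 122, 135 and 116 CPM against 139 and 157.

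Heme breakdown and scavenging gave 3 positive and 9 negative values among 12 tested genes (median -0.16). Hmox1, the inducible heme oxygenase that frees iron from heme, had 17.1, 15.3 and 17.5 CPM in tumours, 33.9 in non-tumour 1 and 15.96 in non-tumour 2/3/4. It was thus high in the same profile as Slc40a1 and the Kupffer cell markers, whose part was not tested, and its log2 fold change of -0.58 (SE 0.31, adjusted p = 0.995, edgeR) was 0.05 without that profile and -1.03 without non-tumour 2/3/4. Cd163, the macrophage receptor for haptoglobin bound to hemoglobin, had 2.45, 5.23 and 7.84 CPM against 9.32 and 8.56, which did not follow the Kupffer sum. Lrp1, the receptor for hemopexin bound to heme, had 352, 360.0 and 421 CPM against 485 and 429. Hp and Hpx, the plasma scavengers of hemoglobin and heme, had 2272, 2974 and 3208 CPM against 1861 and 5258, and 3643, 3710 and 3413 CPM against 2975 and 6142. Both were highest in non-tumour 2/3/4 and lowest in non-tumour 1, the order of Saa1 in these 2 profiles.

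**Figure D4:**
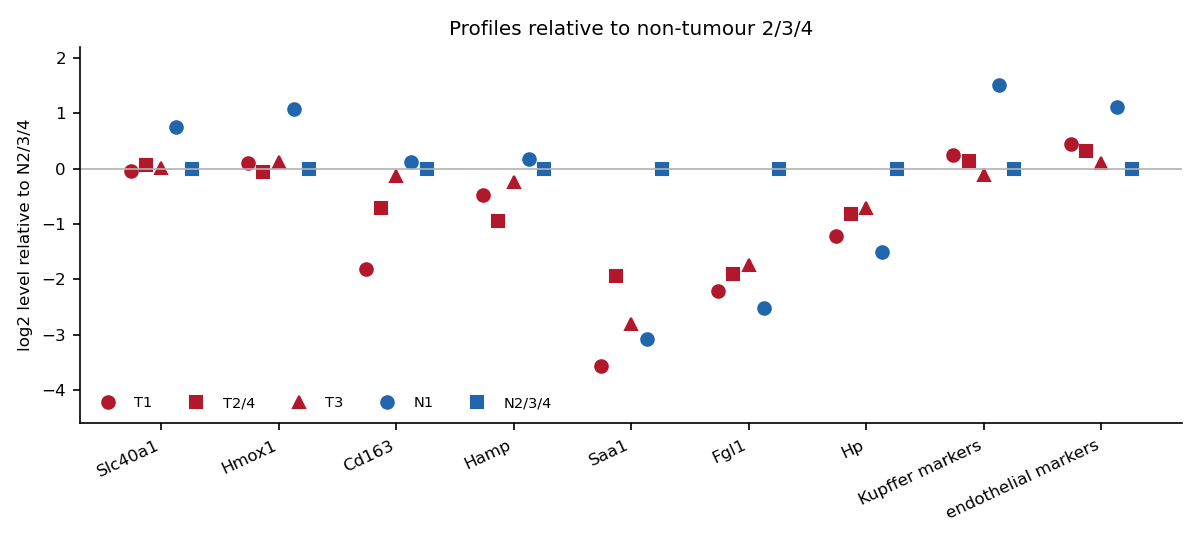
Log2 level of selected genes and of 2 marker sums in each profile, relative to non-tumour 2/3/4 at 0 (tumour red, non-tumour blue; log2 axis). Slc40a1, Hmox1 and both marker sums stand high in N1, Saa1, Fgl1 and Hp stand below 0 in every other profile, and Hamp lies below 0 in the 3 tumour profiles.

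Fgl1, a liver-secreted protein that lowers hepcidin by binding BMP ligands, is shown in that plot after its values had been seen. It had 135, 168 and 187 CPM in tumours, 109 in non-tumour 1 and 625 in non-tumour 2/3/4, the pattern of Saa1. Genes of mitochondrial iron and iron-sulphur assembly were close to balanced, with 11 positive and 9 negative values among 20 tested (median 0.0070). Abcb10, a mitochondrial transporter needed for heme synthesis, had 26.2, 25.9 and 32.6 CPM against 36.5 and 36.3. Nfs1, the cysteine desulfurase, had 36.6, 40.3 and 38.9 CPM against 40.5 and 47.8. Slc25a37, the mitochondrial iron importer mitoferrin 1, had 28.2, 33.0 and 56.7 CPM against 27.2 and 34.0, high in tumour 3 alone.

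**Figure D5:**
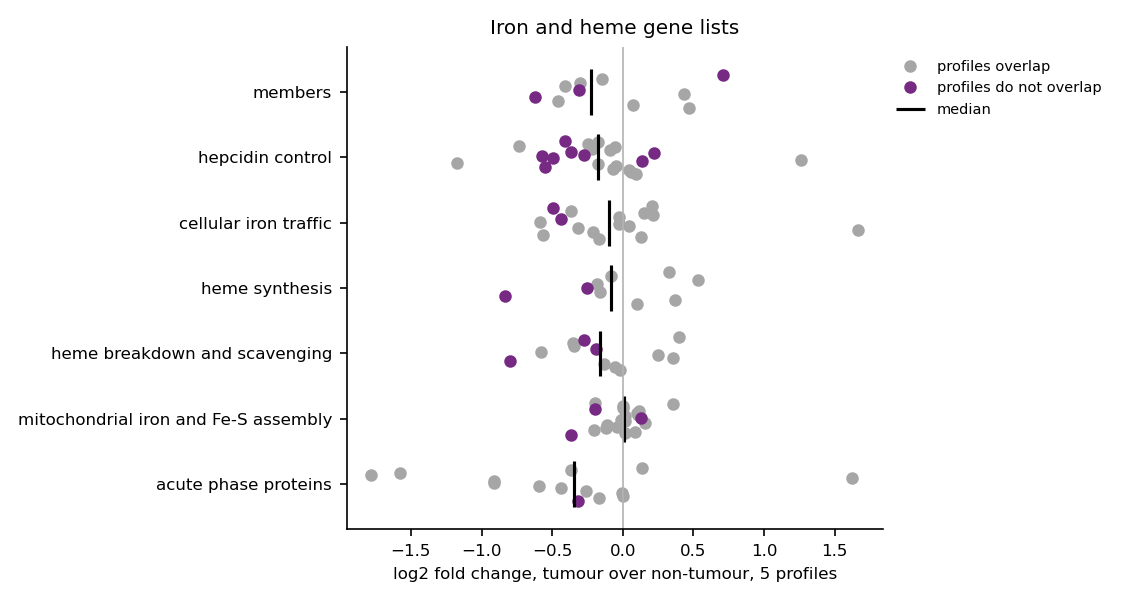
Log2 fold change over the 5 profiles (horizontal axis) for each tested gene of the members, the 5 pathway lists and the acute phase list; purple marks genes whose tumour and non-tumour profiles do not overlap, grey the others, and the black line the list's median. Medians run from -0.34 for acute phase proteins to 0.0070 for mitochondrial iron and Fe-S assembly.

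The genes whose pattern over the 5 profiles was most like that of 3 members were found by the root mean square difference of centred log2 CPM, among genes with a mean of at least 5 CPM. For Hamp these were Ccnf (0.11), Cyp4f14 (0.14) and Pdilt (0.14), where the spread of Hamp itself was 0.39. For Hamp2 they were Mgll (0.12), Rab30 (0.15) and Tnfrsf19 (0.15), where its own spread was 0.55. For Tfrc they were Sec24d (0.047), Man2a1 (0.067) and Lnx2 (0.075), where its own spread was 0.32. Over 5 profiles these matches are a description of level, and nothing is said of shared function.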

How the data were processed

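The deposited files hold raw counts per gene for 8 bulk liver libraries. The authors' featureCounts 1.6.2 command, per the file headers, counted exon reads per gene of Ensembl release 95 (GRCm38) at strand setting 2, with no option set to count reads that map to several places. STAR 2.5.0 and Subread 1.6.2 are named in the submitters' processing notes, which list no read length. Symbols were matched by Ensembl ID for 54723 of 54838 genes, and no row lacked a gene.

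From these counts, libraries of a group whose counts differed by a chi-square per degree of freedom under 10 were summed, leaving 5 profiles. Genes were filtered with filterByExpr (minimum count 10), scaled by TMM and tested with edgeR 4.0.16 (robust quasi-likelihood, R 4.3.3), with Benjamini-Hochberg adjustment over all genes and a threshold of 0.05; SE was taken from the fold change and its F statistic. DESeq2 1.42.0 and limma 3.58.1 were alternatives. Scripts were tested on simulated data. Whether profiles are separate mice is not stated, so p-values measure only the spread between these samples. The members and the lists were chosen with earlier results of these data known. Named genes were all members and up to 3 genes of each list with the lowest unadjusted p. A set panel of iron regulators and the genes most like Hamp, Hamp2 and Tfrc were also named. Fgl1 was chosen after its values were seen. Others, such as Krt19, Slc4a1 and Epb42, were named outside this rule. Iron responsive elements came from GENCODE M21 transcripts and promoters from RefSeq; protein sequences were not used here.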

Additional observations from a re-analysis of the deposited data

How the results depend on the processing

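Under 17 alternative settings, the 10 member fold changes kept their direction in all but 11 of 170 cases. No alternative other than the 7 libraries without tumour 3 called a member. That setting called 5 of the 10 members and 16 of the 87 listed pathway genes, beside 1798 of all 13211 genes tested (13.6%). The 8 libraries as separate samples called 56 of 12880 genes (0.435%). Testing 24531 genes without a filter on low counts called 427, of which 4 were pathway genes (Id1, Lcn2, Alas2 and Fgl1) and none a member; the cause was not tested. DESeq2 called 2 genes (Ankrd33b and Dock8). Leaving out 1 profile gave 0 to 5 called genes, the 5 (Cpe, Gpc3, Ocstamp, Tcf24 and 5330417C22Rik) without tumour 3. Where leaving out a profile left 1 sample in the non-tumour group, it was assumed to vary like the tumour group. Leaving out 1 profile moved the log2 fold change of Trf between 0.41 and 1.08, of Cp between 0.28 and 0.73, of Tfrc between -0.35 and 0.079, of Tfr2 between -0.57 and 0.017, of Slc40a1 between -0.74 and 0.01, of Fth1 between -0.21 and 0.26 and of Hmox1 between -1.03 and 0.05. With limma voom the value was 0.009 for Tfrc and -0.12 for Fth1. Fth1 was also -0.040 over the 8 libraries and -0.25 over the 7 libraries. Deviations from the group means of same-numbered libraries correlated at 0.34, -0.12, 0.26 and -0.10. Of 4 tumour libraries, 2 correlated best with their own number. Non-tumour 2, 3 and 4 are near-identical, as are tumour 2 and 4, so these values cannot say whether the numbers pair the libraries. A fit of the 8 libraries with the replicate block called 0 genes, and Fth1 was -0.069 in it. The members had at least 238 counts in each library; whether more depth would narrow these values was not tested.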
